A study of Komagataella phaffii GS115 with 6 samples.

Results

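INO1 (PAS_chr2-2_0113), which encodes inositol phosphate synthase, and FPS1 (PAS_chr1-4_0314), which encodes farnesyl pyrophosphate synthetase, were 2 of the 115 genes in a table of genes that differed between media in the methylotrophic yeast Komagataella phaffii (Pichia pastoris) GS115. They were taken by identifier, as the genes listed there for inositol and for isoprenoid synthesis. The table had itself been chosen on the comparison described here. In the authors' deposited table no gene had a log2 fold change between media smaller in size than 1, and no p-value exceeded 0.0465. All values for these genes are therefore descriptions and no test is given for them. RNA was sequenced from cells labelled WT after 48 h in BMMY, a buffered rich medium that supplies carbon as methanol, or in the same medium with 1% maltose. Each medium had 3 libraries, and the labels do not say whether they came from separate cultures or whether the cells carried a collagen construct, collagen production being the subject of the series. Medium, time, strain and genotype are all that the labels give for a group, and by those labels the media differ only in maltose. All values come from whole cultures, so less RNA per cell and fewer cells that transcribe a gene cannot be told apart.

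Inositol phosphate synthase turns glucose 6-phosphate into an inositol phosphate, the committed step by which cells make inositol. Inositol is then built into phosphatidylinositol, the inositol sphingolipids and the anchors of surface proteins. In Saccharomyces cerevisiae INO1 is known for strong transcriptional control by lipid precursors, with high transcript levels when inositol is lacking and low levels when it is supplied. Farnesyl pyrophosphate synthetase joins small isoprenoid units into farnesyl pyrophosphate, the branch point from which ergosterol, dolichol, ubiquinone, haem A and the farnesyl groups of proteins are made. The symbol FPS1 comes from the similar protein of Kluyveromyces lactis in the deposited annotation. In Saccharomyces cerevisiae the same enzyme is ERG20, and FPS1 names an unrelated glycerol channel. The deposited annotation gave neither gene a pathway entry, and placed INO1 in lipid transport and metabolism and FPS1 in coenzyme transport and metabolism.

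INO1 was far lower with maltose. Its level was 178.7, 136.0 and 125.0 FPKM (fragment counts scaled by gene length and by library depth) in BMMY replicates 1, 2 and 3, and 17.5, 18.0 and 25.2 FPKM in the maltose libraries. The media did not overlap, and the lowest BMMY library was 4.96-fold above the highest maltose library. The means were 147 ± 28.4 FPKM in BMMY and 20.25 ± 4.3 FPKM with maltose (SD, n = 3), a 7.24-fold difference. The log2 fold change of maltose over BMMY, fitted to the counts of all 112 genes that passed a mean of 1 FPKM, was -2.86 (SE 0.25). BMMY replicate 1 held the highest BMMY value and maltose replicate 3 the highest maltose value. The spread within media was an SD of 0.28 on the log2 scale, so the difference between media was many times larger.

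FPS1 was moderately higher with maltose on the FPKM scale. It had 385.3, 238.9 and 219.9 FPKM in BMMY replicates 1, 2 and 3, and 490.1, 456.1 and 489.0 FPKM with maltose. The media did not overlap, but BMMY replicate 1 lay close to the maltose libraries, and the lowest maltose value was only 1.18-fold above it. The means were 281 ± 90.5 FPKM in BMMY and 478 ± 19.3 FPKM with maltose (SD, n = 3), a 1.7-fold difference, with a fitted log2 fold change of 0.77 (SE 0.24). The coefficient of variation was 32.2% in BMMY and 4.04% with maltose. Without BMMY replicate 1 the log2 fold change was 1.06. With TMM, another scaling between libraries, it was 0.32 (SE 0.17). The scaling stayed unchanged in 11 of 15 alternatives. When libraries were scaled to equal FPKM sums over the listed genes, the log2 fold change of FPS1 was -0.06, the 1 reversal among the 15. That scaling sets equal totals for genes that were selected on this contrast. By counts they held 6.83% to 10.13% of the implied depth in BMMY and 14.91% to 15.28% with maltose. It therefore lowers maltose values by construction, and its sign does not decide the direction for FPS1. That direction still rests on the scaling between libraries, which the listed genes alone cannot settle. The spread within media was an SD of 0.31 on the log2 scale.

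**Figure D1:**
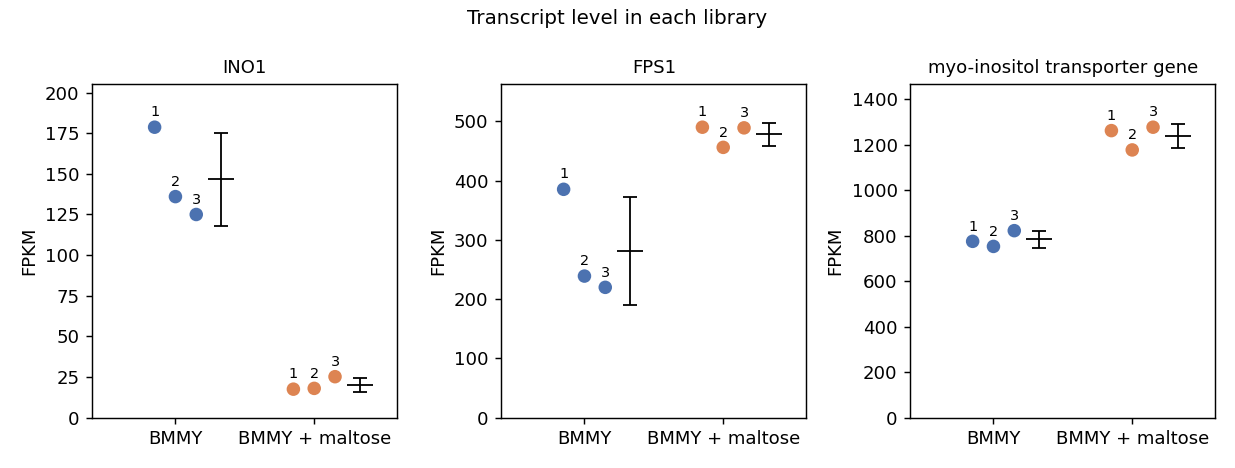
Level in FPKM (vertical axes from 0) of INO1, FPS1 and the gene annotated as a myo-inositol transporter in each library, numbered by replicate, with the mean and SD (n = 3) beside the points. INO1 lies between 125.0 and 178.7 FPKM in BMMY and at or below 25.2 FPKM with maltose. FPS1 and the transporter gene are higher with maltose on this scale, though not when libraries are scaled to equal FPKM sums, and BMMY replicate 1 stands above the other BMMY libraries for INO1 and FPS1 but not for the transporter gene.

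Both genes were read deeply enough that counting error was small beside the spread of the libraries. INO1 had 10549 to 16333 counts in BMMY and 1297 to 1530 with maltose. A count of 1297 has a 95% exact Poisson interval of 1227 to 1370, which covers counting error only. Its counting error of 2.78% compares with a coefficient of variation of 21.2% among the maltose libraries. FPS1 had between 12526 and 28865 counts in any library, with a counting error of at most 0.894%. The variation of FPS1 among BMMY libraries was thus far above its counting error.

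As FPKM values are scaled by gene length, levels may also be compared between the genes. FPS1 had the higher level in all 6 libraries. By level among the 115 listed genes, INO1 went from between positions 42 and 45 in BMMY to 67 or 68 with maltose, counted from the most abundant. FPS1 was at positions 31 to 34 in BMMY and 26 to 28 with maltose. In BMMY the highest INO1 value, 178.7 FPKM, was below the lowest FPS1 value, 219.9 FPKM.

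The ratio of FPS1 to INO1 within a library does not depend on how libraries are scaled against each other. FPS1 was 2.16, 1.76 and 1.76 times INO1 in BMMY replicates 1, 2 and 3, and 28.0, 25.3 and 19.4 times INO1 with maltose. The media did not overlap. On the log2 scale the ratio of INO1 to FPS1 was -0.91 ± 0.17 in BMMY and -4.58 ± 0.27 with maltose (SD, n = 3), a difference of -3.67 (SE 0.19) or 12.7-fold. It ran from -3.82 to -3.56 when single libraries were left out. INO1 was listed as lower and FPS1 as higher with maltose, so a difference in this direction followed from the selection. The ratio describes its size only.

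The counts of listed genes set these values in context. INO1 was among the genes whose maltose values all lay below their BMMY values, which 51.3% of the 115 genes did. FPS1 was among those whose maltose values all lay above, which 43.5% did. Nothing is read from either, since the table was selected for such differences. By fitted log2 fold change INO1 was the 5th lowest of 112 genes, against a median of -1.64 for the lower genes. FPS1 was the 31st highest, against a median of 0.8 for the higher genes, and so lay near the middle of them.

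**Figure D2:**
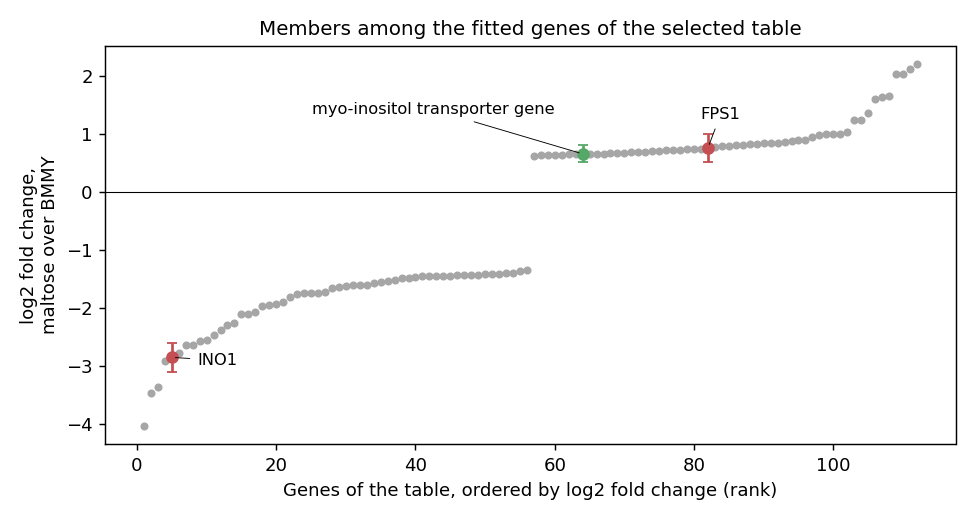
Log2 fold change of maltose over BMMY (vertical axis) for the 112 fitted genes, ordered by its value (horizontal axis), with bars of 1 SE for the marked genes. The empty band around 0 comes from the selection of the table. INO1 at -2.86 stands near the low end, and FPS1 at 0.77 and the transporter gene at 0.66 lie on the flat run of higher genes. With equal FPKM sums FPS1 is at -0.06 and the transporter gene at -0.22.

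In the authors' deposited table INO1 had a log2 fold change of -2.50 with a p-value of 3.1e-47, and FPS1 had 1.13 with a p-value of 1.12e-07. Over the 115 genes, log2 fold changes of the authors' deposited table were above the log2 ratios of mean FPKM by a median of 0.37. FPS1 therefore passed the threshold of 1 on the authors' scale but not as an FPKM ratio, as was so for 43 of the 56 genes listed as higher. INO1 was beyond it on either scale. The genes nearest to the threshold in the authors' deposited table were PAS_chr2-2_0470, of unknown function, at 1.001 and MET6, a methionine synthase, at -1.001. Genes just outside it were not analysed here.

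**Figure D3:**
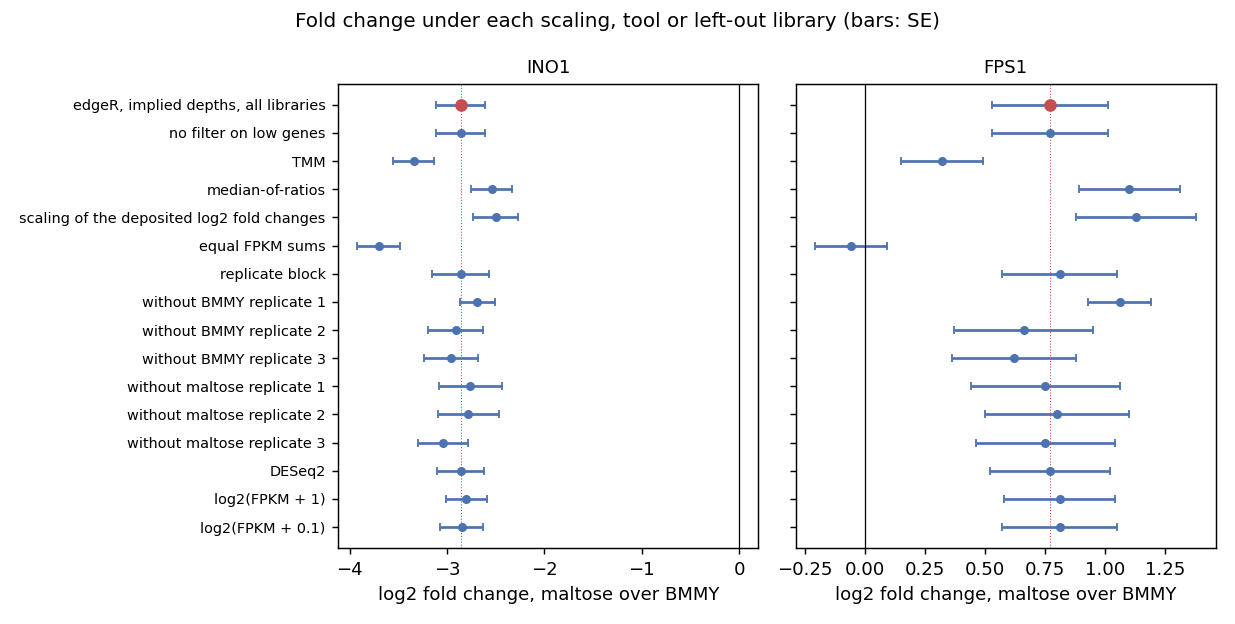
Log2 fold change of maltose over BMMY (horizontal axes) for INO1 and FPS1 under each scaling, tool or left-out library (vertical axis), with bars of 1 SE and the reported value in red. INO1 stays between -3.70 and -2.50, while FPS1 runs from -0.06 with equal FPKM sums to 1.13 with the scaling behind the deposited fold changes. That last scaling was fitted to the deposited fold changes.

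Other genes of inositol and isoprenoid metabolism were looked for in the table with 111 symbols in 7 lists. Of these, 5 were found, including INO1 and FPS1 themselves. The table held 115 of the 5040 annotated genes, and nothing is read from the counts of symbols found. INO1 was the 1 gene found of 24 symbols for inositol and phospholipid synthesis, and FPS1 the 1 gene found of 12 for the mevalonate pathway to farnesyl pyrophosphate. None was found of 22 symbols for inositol phosphates, phosphoinositides and inositol sphingolipids, of 11 for other users of farnesyl pyrophosphate, or of 12 for fatty acid synthesis. Many listed genes carry symbols of other species, and genes outside the table were not analysed here, so these counts do not show that other steps were unaffected.

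The list for sterol synthesis and its regulators held 1 of 20 symbols in the table. This was SUT2 (PAS_chr1-4_0516), a putative transcription factor whose namesake in Saccharomyces cerevisiae belongs to a family linked to sterol uptake. SUT2 had 1196, 433 and 419 FPKM in BMMY replicates 1, 2 and 3 and 1163, 1254 and 1340 FPKM with maltose. BMMY replicate 1 was above 1 of the maltose libraries, so the media overlapped, as they did not for FPS1. The log2 fold change of SUT2 was 0.87 (SE 0.40), with 1.55 in the absence of BMMY replicate 1 and 0.10 with equal FPKM sums.

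The list for the supply of glucose 6-phosphate, the substrate of the INO1 enzyme, held 2 of 10 symbols in the table, and both had maltose values wholly above their BMMY values, as 43.5% of all 115 listed genes did, so nothing is read from this count. FBP1 (PAS_chr3_0868), fructose bisphosphatase of gluconeogenesis, had 1487, 1233 and 1219 FPKM in BMMY and 2172, 2106 and 2281 FPKM with maltose, a log2 fold change of 0.74 (SE 0.16). FBA1 (PAS_chr1-1_0319) is described in the deposited annotation as an aldolase required for glycolysis and gluconeogenesis. Which pathway it serves in these cells was not tested. Its level was 3746, 2223 and 2291 FPKM in BMMY and 4837, 4414 and 4063 FPKM with maltose. The log2 fold change of FBA1 was 0.69 (SE 0.23). With equal FPKM sums these were -0.12 for FBP1 and -0.14 for FBA1. On the FPKM scale INO1 was the 1 lower gene among the 5 found, and with equal FPKM sums SUT2 was the 1 gene of the 5 above 0. INO1 was below 0 under every scaling tried.

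A search of the deposited product descriptions and gene ontology terms for words on inositol, prenyl groups, sterols and lipids, made after the values were seen, matched 3 further genes. The most closely related was PAS_chr4_0828, described as a myo-inositol transporter similar to the minor inositol transporter Itr2 of Saccharomyces cerevisiae, and by its nearest curated protein as a polyol transporter of Arabidopsis thaliana (PLT1). It had 776, 754 and 823 FPKM in BMMY replicates 1, 2 and 3, and 1263, 1178 and 1278 FPKM with maltose. The media did not overlap, and BMMY replicate 1 did not stand apart. The means were 784 ± 35.4 and 1240.0 ± 54.0 FPKM (SD, n = 3), 1.58-fold higher with maltose, with a log2 fold change of 0.66 (SE 0.15) that was -0.22 with equal FPKM sums. What this protein carries in Komagataella phaffii was not measured. The other matches were YPS1 (PAS_chr3_0299), a surface protease held by an inositol-containing anchor, which was 3.05-fold lower with maltose, and hob3 (PAS_chr3_0833), a protein of the amphiphysin type, which was 2.02-fold higher.

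The transporter gene and INO1 thus lay on opposite sides on the FPKM scale, and their ratio within a library differed between media whatever the scaling. The transporter gene was 4.34, 5.54 and 6.59 times INO1 in BMMY replicates 1, 2 and 3, and 72.1, 65.4 and 50.7 times INO1 with maltose. This was an 11.5-fold difference, or 3.52 on the log2 scale (SE 0.23). The transporter gene was listed as higher and INO1 as lower, so a difference in this direction followed from the selection. Against FPS1, which was also listed as higher, the ratio of the transporter gene did not separate the media. The transporter gene was 2.01, 3.155 and 3.74 times FPS1 in BMMY and between 2.58 and 2.61 times FPS1 with maltose, inside the range of the BMMY libraries.

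**Figure D4:**
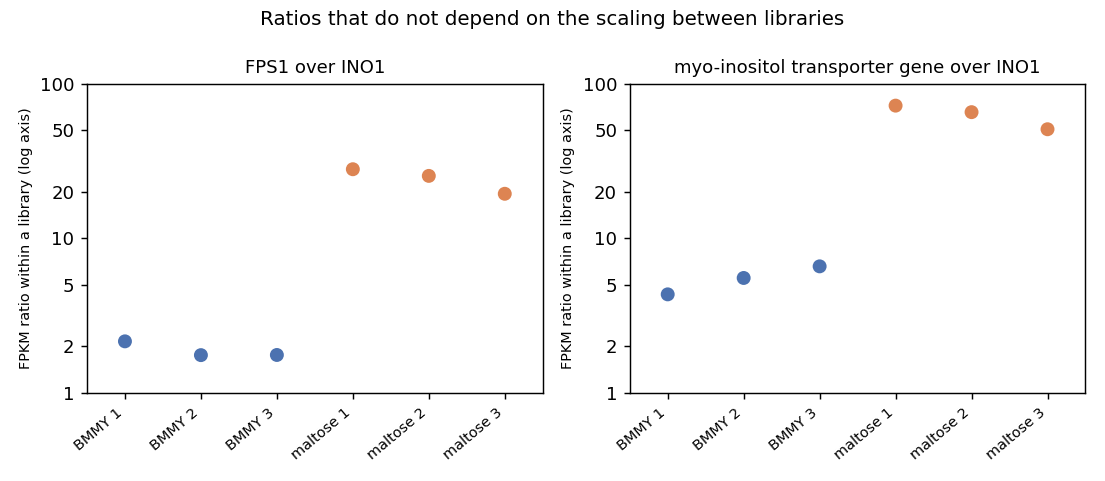
Ratio of FPS1 to INO1 (left) and of the myo-inositol transporter gene to INO1 (right) in FPKM within each library, on log axes, by library (horizontal axis). The left ratio is 1.76 to 2.16 in BMMY and 19.4 to 28.0 with maltose, and the right one is 4.34 to 6.59 in BMMY and 50.7 to 72.1 with maltose.

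Likeness of pattern was measured as Pearson's r of log2(FPKM + 1) over the 6 libraries, which share one contrast, one selection and their depths, so r is high throughout the table. For INO1 the 3 most similar genes were PAS_chr1-4_0681 (r = 0.999), a gene with the symbol of a bacterial dimethyl-sulfide monooxygenase (dmoA), CAR2 (PAS_chr3_0410, r = 0.998), ornithine transaminase, and an arginase gene (CAR1, PAS_chr4_0684, r = 0.997). The median over the other 58 genes listed as lower was 0.974. After the mean of each medium was removed, r with INO1 was 0.994, 0.904 and 0.850 for these genes, against a median of 0.140. The genes were picked by r over the same values, which favours a high r here too, so this is no separate support. The highest r of any listed gene by this measure was 0.994, for PUT2 (PAS_chr2-2_0496). PAS_chr1-4_0681 had its highest BMMY value, 57.5 FPKM, in replicate 1 and its highest maltose value, 8.46 FPKM, in replicate 3, as INO1 did.

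For FPS1 the most similar genes were FDH1 (PAS_chr3_0932, r = 0.997), formate dehydrogenase, FLD1 (PAS_chr3_1028, r = 0.996), formaldehyde dehydrogenase, and PEX13 (PAS_chr2-2_0207, r = 0.990), a peroxisomal import protein. The median over the other 55 genes listed as higher was 0.952. With the mean of each medium removed, r with FPS1 was 0.988, 0.987 and 0.964, and the median was still 0.897. By this measure the highest r of any listed gene was 0.992, for TPN1 (PAS_chr1-3_0153). As that median shows, most higher genes shared with FPS1 the raised value in BMMY replicate 1. This library held the highest BMMY value in 47 of 56 of them and in 23 of the 59 lower genes. What sets this library apart was not tested. Between INO1 and FPS1 r was -0.776 over the 6 libraries and 0.724 after the mean of each medium was removed.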

How the data were processed

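The deposited table holds whole-number read counts and FPKM values per gene and library for 115 genes, per the file headers. It also holds the authors' log2 fold change and p-value per gene, from a test not given in the sources used here. Per the submitters' processing notes, the tools were CASAVA, HISAT2 2.2.1 and StringTie, whose roles are not stated. Build, annotation and strand setting are likewise not given, and coordinates are left out. Gene lengths and order came from the RefSeq annotation of assembly ASM2700v1, which all 115 identifiers matched. No sequences are shown.

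Library depth, taken as the median over genes of the count over the product of FPKM and length, was 35.3 to 76.1 M fragments. Library sizes were set to it, and counts of the 112 genes with a mean of at least 1 FPKM were fitted with edgeR 4.0.16 (R 4.3.3), with medium as the only term. The standard error is the absolute log2 fold change divided by the square root of the quasi-likelihood F statistic. The fit was tested on simulated data. Alternatives were other scalings, DESeq2 1.42.0, limma 3.58.1 on log2(FPKM + 1) and log2(FPKM + 0.1), no filter, a replicate block and leaving out each library. The genes and the lists were chosen with earlier results of these data known. Named genes are INO1 and FPS1, list matches by symbol, the 3 most similar in pattern to each, listed genes within 5 positions of either, and those nearest the deposited threshold. Others were named after their values were seen.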

Additional observations from a re-analysis of the deposited data

How the results depend on the processing

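The scaling between libraries moved both genes most. INO1 was at -3.34 on the log2 scale with TMM, -2.54 with median-of-ratios factors, -2.50 with the scaling behind the deposited fold changes and -3.70 with equal FPKM sums. FPS1 was at 0.32, 1.10, 1.13 and -0.06 under the same scalings. The median shift over the fitted genes was -0.49, 0.32, 0.36 and -0.86 in the same order. The scaling behind the deposited fold changes was recovered by fitting it to those fold changes over 92 genes. It therefore returned -2.50 and 1.13 by construction. Equal FPKM sums also turned PAS_chr4_0828 to -0.22, FBP1 to -0.12 and FBA1 to -0.14 (alternatives chosen after seeing the data for these genes). This scaling lowers maltose values by construction, as the listed genes held a larger share of the depth with maltose. Its reversals therefore do not decide a direction. The other 11 alternatives of 15, which kept the scaling between libraries, left INO1 and FPS1 within 1 SD of the reported values. With each library left out in turn INO1 ran from -3.04 to -2.69, FPS1 from 0.62 to 1.06 and the INO1 to FPS1 ratio from -3.82 to -3.56. With a replicate block the values were -2.86, 0.81 and -3.67. Replicate numbers gave no sign of pairing, as the deviations of same-numbered libraries over 112 genes correlated at -0.20, 0.00 and 0.00 and no library correlated best with its own number. Depth limits neither gene, the lowest count being 1297.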

Other observations

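Of the 10 genes within 5 positions of INO1 in the annotation order, 1 was in the table. None of the 10 around FPS1 was. The table held 115 of the 5040 annotated genes, and nothing is read from these counts. The 1 listed neighbour was PAS_chr2-2_0117, a protein of unknown function 4 positions from INO1. It had 62.6, 56.4 and 56.2 FPKM in BMMY replicates 1, 2 and 3 and 17.5, 19.9 and 28.1 FPKM with maltose. The media did not overlap, as was so in the lower direction for 51.3% of the 115 listed genes. The mean was 2.68-fold lower with maltose, and the highest maltose value was in replicate 3, as for INO1.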
